A study of Mus musculus with 18 samples.

Results

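The transcripts of 8 genes, grouped under the handling of ATP and adenosine outside the cell, were followed through 18 RNA-seq samples of CD3+ tumor-infiltrating lymphocytes (TILs) from B16-OVA tumors. These genes were Panx1, P2rx7, Entpd1, Nt5e, Ada, Dpp4, Adora2a and Adora2b. The 8 were selected by name out of 37236 genes, with earlier results of these samples known. Those results included the higher Entpd1 level of Nr2f6-/- anti-PD-L1 samples against both groups of wild-type mice, so these Entpd1 differences are given as a description without a p-value. No p-value of another member is independent support for the choice. All 8 passed the filter on low values, a mean of at least 10 normalized read counts over the 18 samples.

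B16-OVA is a mouse melanoma line that carries ovalbumin as a model antigen, and 500000 cells were placed under the skin of C57BL/6 mice that were either wild-type (Nr2f6+/+) or lacked the nuclear receptor Nr2f6 in all cells (Nr2f6-/-), so that the genotype was not restricted to T cells. From d3 on, mice of both genotypes received repeated i.p. doses of 0.5 mg of an antibody that blocks PD-L1 or of IgG2b as its control, and tumors were taken at d14. Mice in the tumor experiments were 8 to 12 weeks old at injection. This gave 3 Nr2f6+/+ IgG2b, 3 Nr2f6-/- IgG2b, 6 Nr2f6+/+ anti-PD-L1 and 6 Nr2f6-/- anti-PD-L1 samples. CD4 and CD8 cells were enriched with beads, combined and passed through a CD3 sort, so each sample holds both CD4+ and CD8+ cells. By their library numbers the samples form a first set of 12, with replicates 1 to 3 of each group, and a second set of 6, which adds replicates 4 to 6 under anti-PD-L1.

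Between 12473391 and 18609482 reads per sample lay on genes, so that 3 reads, taken as the floor, stood for 2.46 to 3.65 normalized counts. This covers counting error only. Nr2f6 was at 0 in all 9 Nr2f6-/- samples and between 20.2 and 201 normalized counts in the 9 Nr2f6+/+ samples. The 10 T cell markers summed to between 66116 and 108090 normalized counts. Macrophage markers were also present: the 14 of them summed to 16084 to 20101 in Nr2f6+/+ IgG2b, 9072 to 12273 in Nr2f6-/- IgG2b, 1541 to 6601 in Nr2f6+/+ anti-PD-L1 and 1053 to 2647 in Nr2f6-/- anti-PD-L1 samples, and none of the 14 was at 0 throughout. In such bulk samples fewer cells of a type and less RNA per cell cannot be told apart.

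ATP released from stressed or dying cells acts on purinergic receptors and is degraded at the cell surface. CD39, encoded by Entpd1, removes phosphates from ATP and ADP to give AMP, and CD73, encoded by Nt5e, turns AMP into adenosine. Adenosine acts through several receptors, of which those coupled to Gs raise cAMP and dampen T cell activation. CD39 is a known surface protein of regulatory and exhausted T cells in tumors.

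Entpd1, Panx1 and Dpp4 are the members whose levels between the genotypes are described at most length, and the sequence just upstream of their starts is shown for that reason, from RefSeq on GRCm38.p6. Promoter windows were matched for 7 of the 8 members. They were searched on both strands for the nuclear receptor half-site AGGTCA, its direct repeat with 1 base between the copies, the cAMP response element TGACGTCA and its half-site TGACG, which lies within it. The capitals mark matches of either half-site, here CGTCA, which is TGACG read on the other strand.
Entpd1, second of 2 starts, 250 bases at chr19:40659520-40659769, + strand: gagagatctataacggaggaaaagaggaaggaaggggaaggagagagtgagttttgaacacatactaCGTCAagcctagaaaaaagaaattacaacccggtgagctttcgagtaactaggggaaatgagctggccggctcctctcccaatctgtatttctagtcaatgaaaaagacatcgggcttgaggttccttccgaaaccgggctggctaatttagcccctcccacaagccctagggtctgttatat
Panx1, 250 bases at chr9:15045479-15045728, - strand: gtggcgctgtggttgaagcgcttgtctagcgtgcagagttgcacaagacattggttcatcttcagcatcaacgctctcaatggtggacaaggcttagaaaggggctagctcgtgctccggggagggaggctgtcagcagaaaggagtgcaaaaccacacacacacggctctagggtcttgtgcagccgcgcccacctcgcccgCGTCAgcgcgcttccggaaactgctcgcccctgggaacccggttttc
Dpp4, 166 bases at chr2:62412316-62412481, - strand: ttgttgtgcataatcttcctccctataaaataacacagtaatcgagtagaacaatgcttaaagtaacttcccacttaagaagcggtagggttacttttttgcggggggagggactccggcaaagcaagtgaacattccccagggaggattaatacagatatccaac
The half-site TGACG was found once before each of the 2 Entpd1 starts, beginning 135 and 183 bases upstream, and once before Panx1, beginning 47 bases upstream. It is a common string, present in 17.8% of the 32851 windows of 250 bases. AGGTCA, present in 14% of windows, was found among the members once, 192 bases before the second P2rx7 start. TGACGTCA, present in 1.55%, and the direct repeat, present in 0.0335%, were in no member's window. The windows of Nt5e, Dpp4, Ada and Adora2b held none of these letters, which says nothing about binding of a factor.

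**Figure D1:**
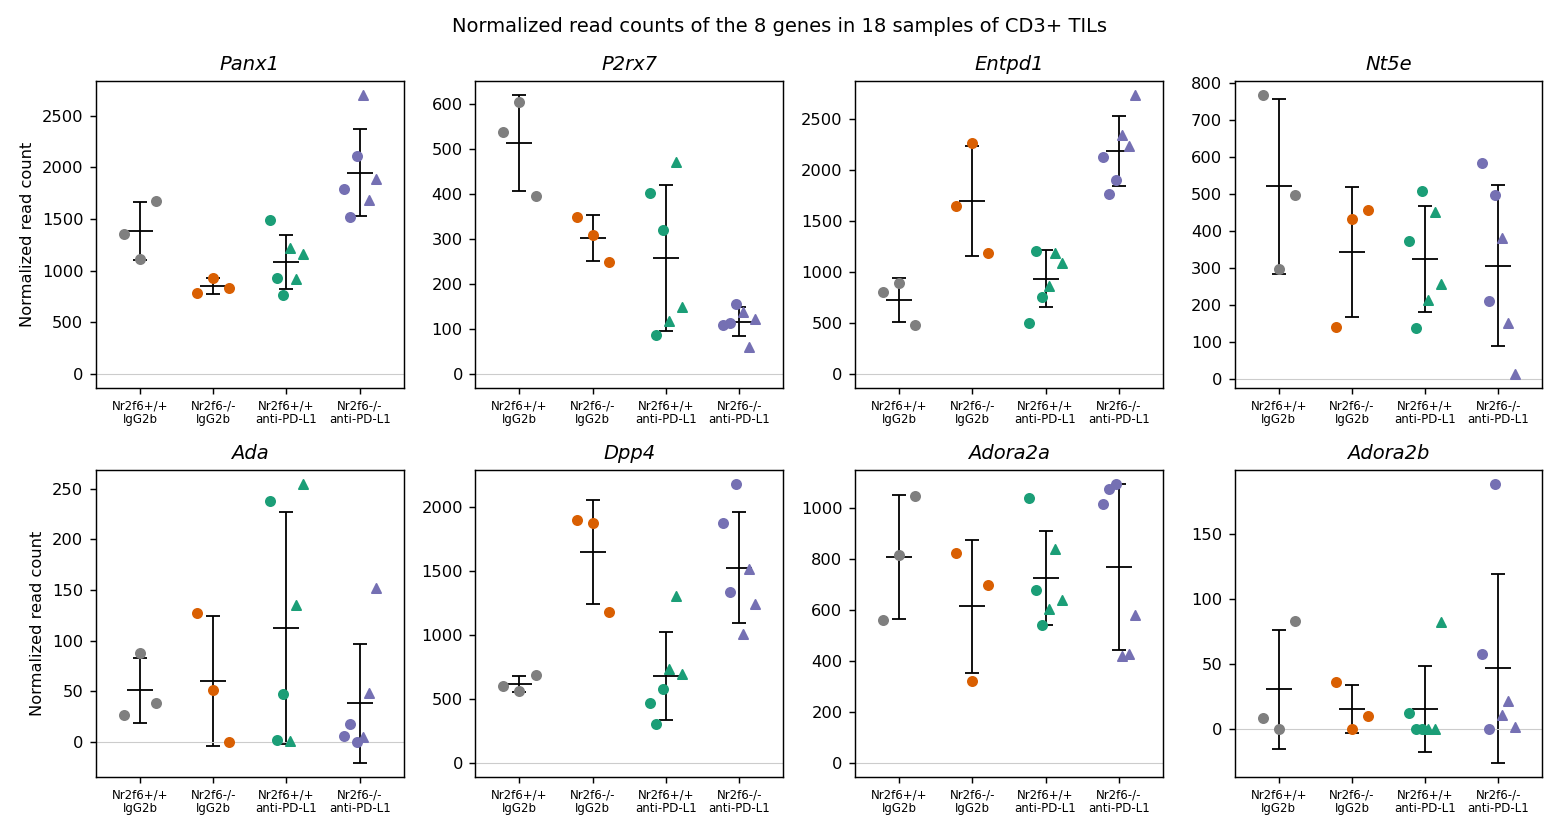
Normalized read counts (y axes, linear) of the 8 genes in each of the 18 samples by group (x axes), with the mean and SD as bars; circles are the first library set and triangles the second. Entpd1 and Dpp4 are high in both Nr2f6-/- groups, Panx1 is highest in Nr2f6-/- anti-PD-L1 (1522 to 2700), and Ada and Adora2b are at or near 0 in several samples.

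Across the 8 members, limma on log2(normalized count + 1) called 1 gene, Entpd1, between the genotypes under anti-PD-L1, where 0.175% of the 11992 genes tested were called. The choice of the members used this comparison, so nothing is read from that count. On the recovered reads edgeR also called Entpd1 there (0.183% of genes), and DESeq2 called 3 members, Entpd1, Dpp4 and Panx1 (1.57%). Between the genotypes under IgG2b limma called 0 members (0% of genes), edgeR also called 0 (0%), and DESeq2 called 1, Entpd1 (0.75%). At an unadjusted p under 0.05, 3 members passed there, Entpd1, Dpp4 and Panx1, against 5.35% of genes. For anti-PD-L1 against IgG2b in wild-type mice limma called 0 members (0.242% of genes), as did edgeR (0.158%) and DESeq2 (0.801%), and 0 had an unadjusted p under 0.05 (7.24% of genes). In Nr2f6-/- mice limma called 1 member between the antibodies, Panx1, where 0.325% of genes were called, and edgeR (0.3%) and DESeq2 (1.96%) called the same member. Between Nr2f6-/- anti-PD-L1 and Nr2f6+/+ IgG2b, limma called Entpd1 (0.617% of genes), also known beforehand, as did edgeR (0.342%), and DESeq2 called 3 members, Entpd1, Dpp4 and P2rx7 (1.51%). For the difference of the antibody effect between the genotypes limma called 0 members (0% of genes), edgeR 0 (0%) and DESeq2 1, Panx1 (0.648%), while 1 member, Panx1, had an unadjusted p under 0.05 (4.97%). These comparisons share groups and are not independent of each other.

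Panx1 (chromosome 9, 15005785 to 15045478, - strand) encodes pannexin 1, a membrane channel through which cells release ATP. Its level in Nr2f6+/+ IgG2b samples was 1358, 1115 and 1673 normalized counts, and in Nr2f6-/- IgG2b samples 779, 933 and 831. Under anti-PD-L1 it ranged from 768 to 1487 in wild-type mice, with a median of 1042, and from 1522 to 2700 in Nr2f6-/- mice, with a median of 1838. The Nr2f6-/- samples were thus below all wild-type samples under IgG2b and above all of them under anti-PD-L1. That groups do not overlap is a description, here and for the genes below. The share of all genes with no overlap was not counted.

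Panx1 rose with anti-PD-L1 in Nr2f6-/- mice by 1.18 on the log2 scale (SE 0.26, adjusted p = 0.0317 from limma), from 848 ± 78 (SD, n = 3) to 1948 ± 418 normalized counts (SD, n = 6), and the groups did not overlap. The adjusted p ran from 0.000326 with DESeq2 to 0.179 without Nr2f6-/- IgG2b replicate 1 over 21 alternatives, and the call was also lost without Nr2f6-/- IgG2b replicate 2 or 3 or Nr2f6-/- anti-PD-L1 replicate 3 or 4, without the filter on low values, with samples scaled to the same total, with the replicate number as a block, within the first library set (log2 difference 1.08, adjusted p = 0.157) and with a term for the set (1.11, adjusted p = 0.0861). In wild-type mice the log2 difference between the antibodies was -0.37 (SE 0.26, adjusted p = 0.837), and these groups overlapped. Between the genotypes the log2 difference was 0.86 under anti-PD-L1 (SE 0.21, adjusted p = 0.0791) and -0.69 under IgG2b (SE 0.30, adjusted p = 0.892). The antibody effect on Panx1 differed between the genotypes by 1.55 on the log2 scale (SE 0.36), which did not pass after adjustment over all genes with limma (unadjusted p = 0.00019, adjusted p = 0.33) and passed with DESeq2 (adjusted p = 0.004). Nr2f6-/- anti-PD-L1 samples were 0.49 above Nr2f6+/+ IgG2b samples on the log2 scale (SE 0.26, adjusted p = 0.597).

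**Figure D2:**
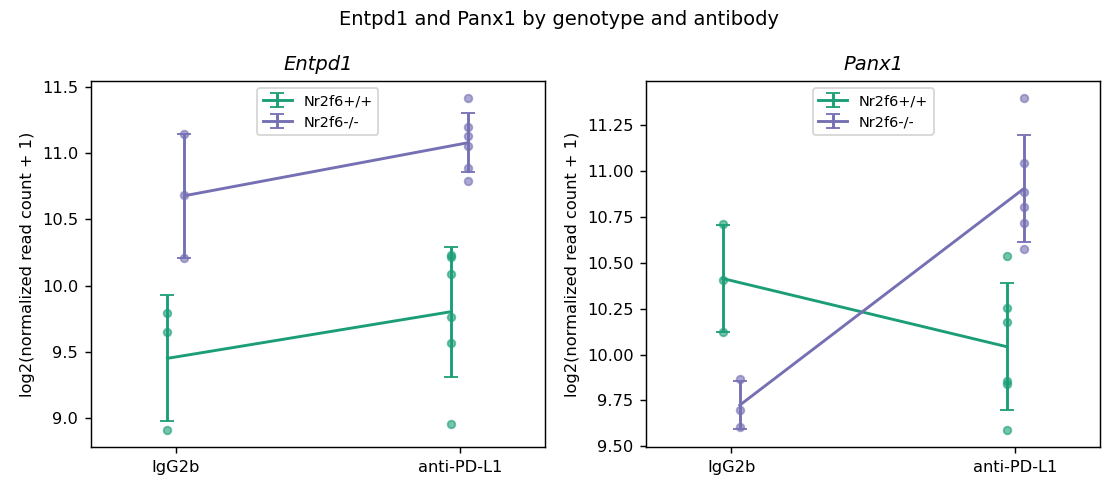
log2(normalized read count + 1) of Entpd1 and Panx1 (y axes) with IgG2b and anti-PD-L1 (x axes), points for samples and lines through the group means with SD bars, by genotype. The 2 Entpd1 lines run side by side (difference of slopes 0.05 on the log2 scale), and the Panx1 lines cross (difference of slopes 1.55).

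P2rx7 (chromosome 5, 122643927 to 122692336, + strand) encodes an ATP-gated ion channel of T cells and macrophages that responds to high extracellular ATP. The microRNA gene Mir8115 overlaps an exon of it on the same strand. Its level was 539, 606 and 396 normalized counts in Nr2f6+/+ IgG2b samples and 349, 309 and 249 in Nr2f6-/- IgG2b samples. It ranged from 85.6 to 472 in Nr2f6+/+ anti-PD-L1 samples, with a median of 235, and from 59.4 to 156 in Nr2f6-/- anti-PD-L1 samples, with a median of 118. The order of the group means was the same as that of the macrophage marker sums.

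All Nr2f6-/- anti-PD-L1 samples lay below all Nr2f6+/+ IgG2b samples in P2rx7, a log2 difference of -2.17 (SE 0.61, adjusted p = 0.113 from limma), which DESeq2 called (adjusted p = 0.00908). The log2 differences were -0.92 (SE 0.50, adjusted p = 0.57) between genotypes under anti-PD-L1 and -0.75 (SE 0.71, adjusted p = 0.989) under IgG2b. Between antibodies they were -1.25 (SE 0.61, adjusted p = 0.697) in wild-type and -1.42 (SE 0.61, adjusted p = 0.435) in Nr2f6-/- mice. Of the 14 macrophage markers, 14 had lower means with anti-PD-L1 in wild-type mice and 14 in Nr2f6-/- mice, of which limma called 1 and 2, respectively (0.242% and 0.325% of all genes). The summed level of the 7 naive or memory T cell markers was also lower with anti-PD-L1, at 4437 to 8046 against 10159 to 13655 in wild-type mice and at 4143 to 6133 against 8125 to 10304 in Nr2f6-/- mice. The part of either in the P2rx7 levels was not tested.

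Entpd1 (chromosome 19, 40612366 to 40741602, + strand) was at 803, 888 and 480 normalized counts in Nr2f6+/+ IgG2b samples and at 1644, 2262 and 1181 in Nr2f6-/- IgG2b samples. Under anti-PD-L1 it ranged from 497 to 1202 in wild-type mice, with a median of 977, and from 1765 to 2735 in Nr2f6-/- mice, with a median of 2181. Under either antibody the Nr2f6-/- samples were all above the wild-type samples. Across antibodies the genotypes overlapped, since the lowest Nr2f6-/- sample was at 1181 and the highest wild-type sample at 1202.

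The Entpd1 log2 difference between the genotypes was 1.27 under anti-PD-L1 (SE 0.24, 2.42-fold), from 933 ± 278 to 2184 ± 345 normalized counts (SD, n = 6 each). It was 1.32 within the first library set and 1.23 within the second, and limma did not call it within either. Under IgG2b, where the wild-type samples were also part of a known comparison, it was 1.23 (SE 0.34, 95% interval 0.53 to 1.92, 2.34-fold), from 724 ± 215 to 1696 ± 542 (SD, n = 3 each). This did not pass with limma (unadjusted p = 0.00109, adjusted p = 0.579) or edgeR (adjusted p = 0.989), and it passed with DESeq2 (adjusted p = 0.0465). With anti-PD-L1 the log2 difference from IgG2b was 0.35 (SE 0.29, adjusted p = 0.869) in wild-type and 0.40 (SE 0.29, adjusted p = 0.718) in Nr2f6-/- mice. The antibody effect differed between the genotypes by 0.05 (SE 0.41, 95% interval -0.80 to 0.90, adjusted p = 0.996). Nr2f6-/- anti-PD-L1 samples were 1.63 above Nr2f6+/+ IgG2b samples on the log2 scale (SE 0.29, 3.09-fold) and 1.36 without Nr2f6+/+ IgG2b replicate 3.

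Marker lists of T cells and of T cell types that can carry CD39 were summed beside it. The 7 regulatory T cell markers summed to 9342 to 27924 normalized counts in Nr2f6+/+ anti-PD-L1 and to 10515 to 17153 in Nr2f6-/- anti-PD-L1 samples, and limma, edgeR and DESeq2 called 0 of the 7 between these groups, with 3 past an unadjusted p under 0.05, all downward, against 9.73% of all genes. The 7 exhausted T cell markers summed to 14529 to 24896 and 19637 to 22457, with 0 of 7 called by the 3 tools and 1 past the unadjusted threshold, upward. The 10 T cell markers summed to 77321 to 99650 and 98235 to 108090, with 0 of 10 called by limma and edgeR, 1 by DESeq2 (Cd8b1, upward) and 3 past the unadjusted threshold, all upward. Under IgG2b the 3 tools called 0 genes of these 3 lists between the genotypes, where 5.35% of all genes had an unadjusted p under 0.05. The regulatory T cell markers summed there to 13210 to 18999 in Nr2f6+/+ and 14014 to 16758 in Nr2f6-/- samples, with 1 past the unadjusted threshold, upward. By log2 difference 5 of the 7 were higher and 2 lower in Nr2f6-/- samples under IgG2b, and 3 were higher and 4 lower under anti-PD-L1. Foxp3, the factor that defines these cells, had means of 506 and 536 normalized counts under anti-PD-L1 and of 326 and 715 under IgG2b. The exhausted T cell markers summed under IgG2b to 11004 to 15313 and 13778 to 17129, with 1 up and 1 down past the unadjusted threshold. The T cell markers summed to 66116 to 79143 and 84356 to 88028, with 0 past it. By log2 difference 6 of the 7 exhausted T cell markers were higher and 1 lower in Nr2f6-/- samples under either antibody. Of the 10 T cell markers, 9 were higher and 1 lower under either antibody. The share of all genes that were higher was not counted. The macrophage marker sums, given above, were lower in Nr2f6-/- than in Nr2f6+/+ samples under IgG2b and overlapped between the genotypes under anti-PD-L1. The part of these lists in the Entpd1 differences was not tested.

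Nt5e (chromosome 9, 88327609 to 88372089, + strand), the gene of CD73, varied widely within each group. Its level was 768, 296 and 498 normalized counts in Nr2f6+/+ IgG2b samples and 141, 433 and 457 in Nr2f6-/- IgG2b samples. It ranged from 139 to 508, with a median of 316, in Nr2f6+/+ anti-PD-L1 samples and from 13.03 to 584, with a median of 295, in Nr2f6-/- anti-PD-L1 samples. The groups overlapped in each comparison. The log2 difference between genotypes under anti-PD-L1 was -0.62 (SE 0.64, 95% interval -1.94 to 0.70, adjusted p = 0.799 from limma), and it was 0.13 without Nr2f6-/- anti-PD-L1 replicate 6, the sample at 13.03. Between Nr2f6-/- anti-PD-L1 and Nr2f6+/+ IgG2b samples it was -1.34 (SE 0.79, adjusted p = 0.685).

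Ada (chromosome 2, 163726571 to 163750239, - strand) encodes adenosine deaminase, which turns adenosine into inosine. Its level was 26.4, 87.6 and 38.97 normalized counts in Nr2f6+/+ IgG2b samples and 127, 51.8 and 0 in Nr2f6-/- IgG2b samples. It ranged from 0.928, which is 1 read, to 255 in Nr2f6+/+ anti-PD-L1 samples, with a median of 90.9, and from 0 to 152 in Nr2f6-/- anti-PD-L1 samples, with a median of 11.9. In all, 4 of the 18 samples were at or under 3 reads, the groups overlapped, and no difference between them is given.

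Dpp4 (chromosome 2, 62330073 to 62412315, - strand) encodes CD26, a surface peptidase that in humans also anchors adenosine deaminase at the cell surface. Whether it does so in these mouse cells was not tested. An exon of the gene model Gm13561 overlaps it on the other strand, and the strand setting of the counting is not given in the sources used here, so reads of the 2 genes may not be separated. Dpp4 was at 603, 557 and 682 normalized counts in Nr2f6+/+ IgG2b samples and at 1892, 1872 and 1176 in Nr2f6-/- IgG2b samples. It ranged from 302 to 1300, with a median of 634, in Nr2f6+/+ anti-PD-L1 samples and from 1004 to 2180, with a median of 1423, in Nr2f6-/- anti-PD-L1 samples. The genotypes did not overlap under IgG2b, and under anti-PD-L1 1 wild-type sample, replicate 5 at 1300, reached into the Nr2f6-/- range.

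The Dpp4 log2 difference between genotypes was 1.26 under anti-PD-L1 (SE 0.28, 95% interval 0.69 to 1.84), 2.40-fold, which narrowly missed the threshold (adjusted p = 0.054 from limma). It passed with DESeq2 (adjusted p = 0.00879) and did not with edgeR (adjusted p = 0.0878), and without Nr2f6+/+ anti-PD-L1 replicate 5 it was 1.48 (adjusted p = 0.00851). Within the first library set the log2 difference was 2.02 (adjusted p = 0.00664) and within the second it was 0.51 (adjusted p = 0.83). Under IgG2b it was 1.39 (SE 0.40, 2.63-fold, adjusted p = 0.595), and between Nr2f6-/- anti-PD-L1 and Nr2f6+/+ IgG2b samples 1.27 (SE 0.34, adjusted p = 0.0925). Dpp4 group means were close between the antibodies within each genotype, at 614 and 677 in wild-type and 1647 and 1523 in Nr2f6-/- mice.

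**Figure D3:**
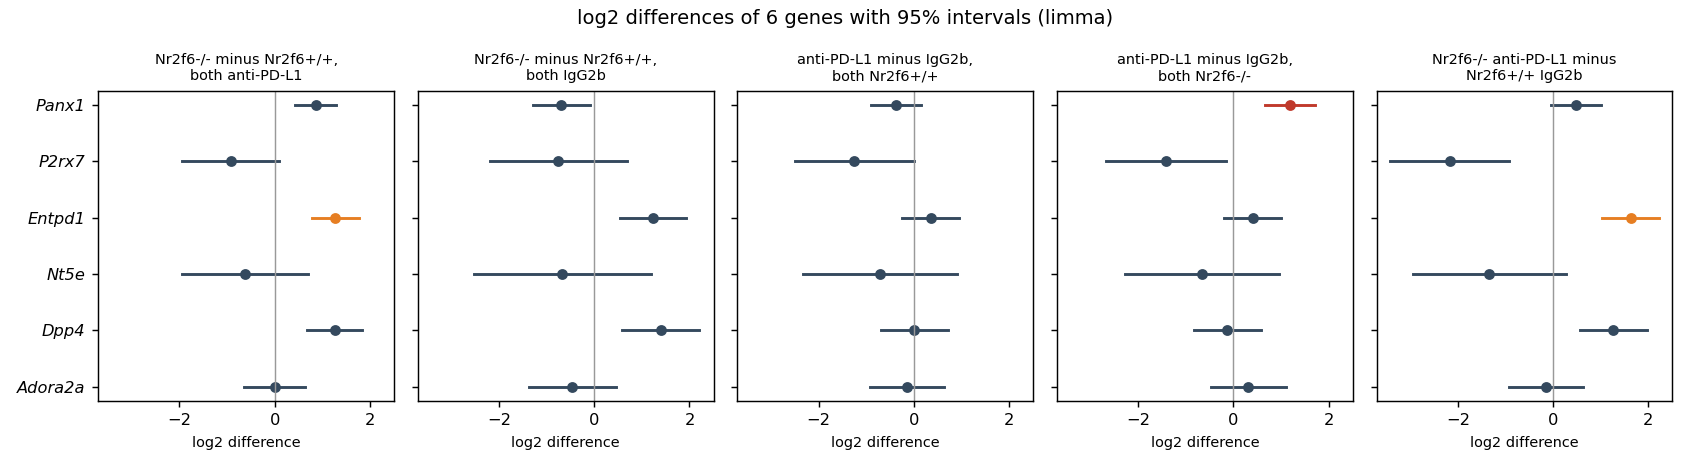
log2 differences (x axes) with 95% intervals of 6 genes in 5 comparisons, 1 panel each, from limma over 18 samples; red marks an adjusted p under 0.05 and orange Entpd1 in the pair of comparisons whose result was known when the genes were chosen. Entpd1 and Dpp4 lie above 0 in the genotype panels (1.23 to 1.39), Panx1 is above 0 with anti-PD-L1 in Nr2f6-/- mice (1.18), and the intervals of Nt5e and Adora2a include 0 in each panel. Ada and Adora2b, with samples at 0, are left out.

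Adora2a (chromosome 10, 75316877 to 75334792, + strand) encodes the main Gs-coupled adenosine receptor of T cells. Its level was 560, 813 and 1044 normalized counts in Nr2f6+/+ IgG2b samples and 820, 320 and 696 in Nr2f6-/- IgG2b samples, a log2 difference of -0.46 (SE 0.44, adjusted p = 0.989 from limma). It ranged from 541 to 1038 in Nr2f6+/+ anti-PD-L1 samples, with a median of 656, and from 419 to 1092 in Nr2f6-/- anti-PD-L1 samples, with a median of 797. The Nr2f6-/- anti-PD-L1 samples split by library set: the 3 of the first set were at 1015, 1071 and 1092, and the 3 of the second at 419, 427 and 580. In wild-type mice with anti-PD-L1 the sets overlapped, at 541 to 1038 and 604 to 838. No difference between the sets was tested.

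Adora2b (chromosome 11, 62248984 to 62266452, + strand) encodes a related Gs-coupled receptor that needs more adenosine to respond. It was at 0 in 7 of the 18 samples and at or under 3 reads in 8. Its level was 8.79, 0 and 82.9 normalized counts in Nr2f6+/+ IgG2b samples and 36.1, 0 and 10.4 in Nr2f6-/- IgG2b samples. In Nr2f6+/+ anti-PD-L1 samples it was at 0 in 4 of 6 and reached 82.4, and in Nr2f6-/- anti-PD-L1 samples it ranged from 0 to 188 with a median of 16.3. The groups overlapped, and no difference between them is given.

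The other genes of ATP and adenosine handling were taken from lists by role, chosen with earlier results known. Of 54 such genes 53 were in the data and 34 were tested. Between the genotypes under anti-PD-L1 limma called 0 of the 34 higher and 1 lower, Enpp2, with a median log2 difference of -0.08 over the 34 against -0.005 over all genes tested. In each of the other comparisons limma called 0 of the 34. Over the 6 comparisons edgeR called 0 of them, and DESeq2 called Enpp2 between the genotypes under anti-PD-L1 and between Nr2f6-/- anti-PD-L1 and Nr2f6+/+ IgG2b samples. At an unadjusted p under 0.05, 4 of the 34 passed between genotypes under anti-PD-L1, 2 higher and 2 lower, against 9.73% of all genes tested. There were 0 between genotypes under IgG2b (5.35% of all genes), 5 for the antibodies in wild-type (7.24%) and 7 in Nr2f6-/- mice (9.7%), 6 between Nr2f6-/- anti-PD-L1 and Nr2f6+/+ IgG2b samples (9.04%) and 2 for the difference of the antibody effects (4.97%).

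**Figure D4:**
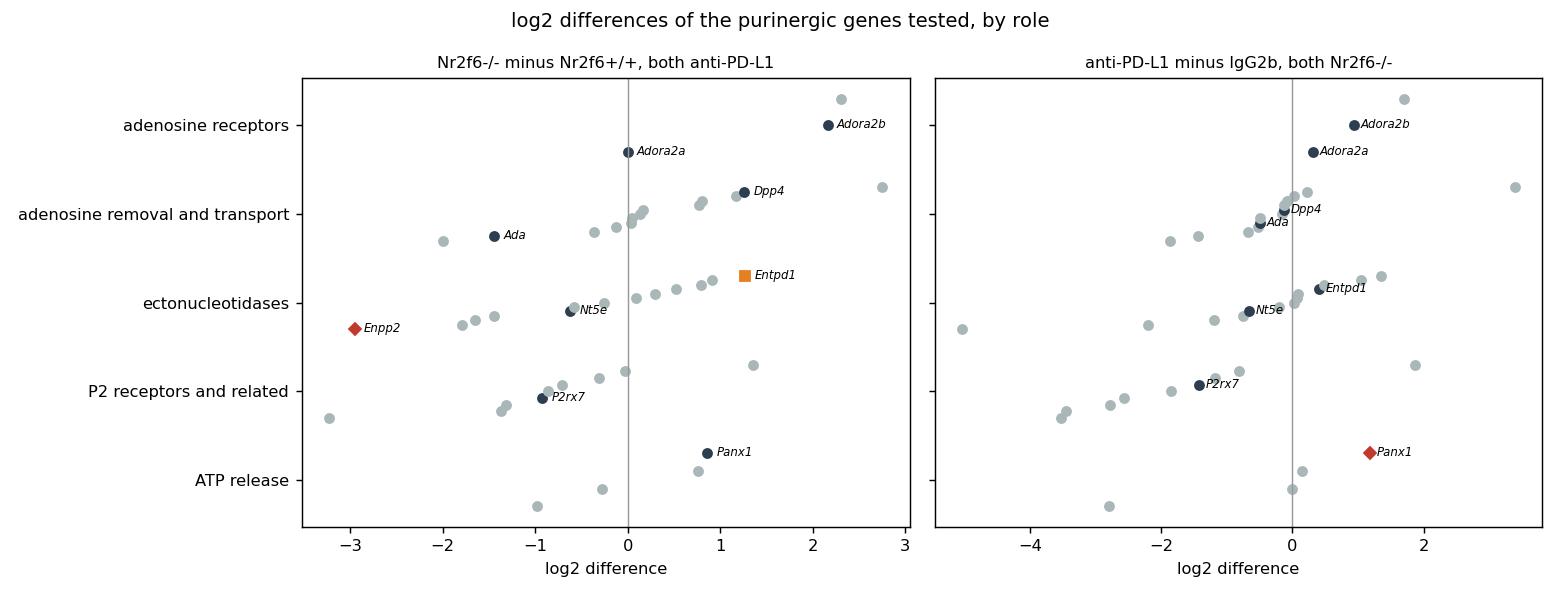
log2 differences (x axes) of the purinergic genes tested, 1 point per gene, in rows by role, between genotypes under anti-PD-L1 (left) and between antibodies in Nr2f6-/- mice (right); red diamonds have an adjusted p under 0.05, dark points are the other members, grey points other genes, and the orange square is Entpd1 (1.27), whose difference was known beforehand and is a description. Enpp2 (-2.95) is called at the left and Panx1 (1.18) at the right.

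Among the other genes listed as nucleotidases, a list not limited to surface enzymes, Enpp2 encodes autotaxin, a secreted phosphodiesterase best known for making lysophosphatidic acid. Its level ranged from 177 to 1756 normalized counts in Nr2f6+/+ anti-PD-L1 samples, with a median of 684, and from 8.37 to 306 in Nr2f6-/- anti-PD-L1 samples, with a median of 92.6. The ranges overlapped, and Enpp2 fell by 2.95 on the log2 scale (SE 0.63, adjusted p = 0.0411 from limma). The call was lost with edgeR, without the filter, in a fit of the compared groups only, within either library set (log2 differences -3.41 and -2.49) and without any 1 of 8 of the 12 samples. Of 6 melanocyte markers, 5 were tested and all 5 were lower in the same comparison (median log2 difference -1.44), with 0 called by limma, edgeR or DESeq2 and 3 past an unadjusted p under 0.05. They summed to 2024 to 7137 normalized counts in Nr2f6+/+ and 736 to 4124 in Nr2f6-/- anti-PD-L1 samples. Their part and that of the macrophage markers in the Enpp2 difference was not tested. Cd38, which encodes an ectoenzyme that consumes NAD, had a mean of 466 in Nr2f6+/+ and 761 in Nr2f6-/- anti-PD-L1 samples, a log2 difference of 0.92 (adjusted p = 0.469). Entpd7 had means between 531 and 683 over the 4 groups and Enpp1, which cleaves ATP to AMP, between 376 and 776.

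In the list of P2 receptor genes, which also holds family members that answer to other nucleotides or to lipids and an ADP-ribosyltransferase, Art2b, limma, edgeR and DESeq2 called 0 of the 8 tested besides P2rx7 in each of the 6 comparisons. P2ry10, a P2Y-family receptor gene with the highest mean among them, was at 5052 in Nr2f6-/- IgG2b and 3192 in Nr2f6-/- anti-PD-L1 samples, a log2 difference of -0.81 (adjusted p = 0.335). Of these 8, 7 had lower levels with anti-PD-L1 in wild-type and 7 in Nr2f6-/- mice. There 2 and 3 passed an unadjusted p under 0.05, against 7.24% and 9.7% of all genes. Their median log2 differences were -0.92 and -2.21, against -0.10 and -0.04 over all genes tested. Art2b, P2ry1, P2ry6, P2ry12, P2ry13 and P2ry14 had means of only 16.4 to 45.4 normalized counts over the 18 samples. Each of them had Nr2f6-/- anti-PD-L1 samples at or under 3 reads, so the size of these medians is not read. The share of all genes that were lower was not counted. The macrophage marker sums, given above, were lower in the same comparisons, and their part was not tested. For the removal and transport of adenosine, Pnp, Slc29a1, Ampd2, Slc28a2 and Adk had the highest means. Slc29a1, which encodes the nucleoside transporter ENT1, had group means between 1300.3 and 1369. Of the other 2 adenosine receptors Adora1 was under the filter and Adora3 had group means between 16.3 and 135.

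Downstream of the Gs-coupled adenosine receptors, 19 of 21 listed genes of the cAMP arm were tested. Between the genotypes limma and edgeR called 0 of 19 under either antibody. Of all genes they called 0.175% and 0.183% under anti-PD-L1 and 0% under IgG2b. At an unadjusted p under 0.05 limma gave 3 higher and 0 lower under anti-PD-L1 (9.73% of all genes in either direction) and 1 higher and 2 lower under IgG2b (5.35%). DESeq2 called Adcy7 and Prkacb under anti-PD-L1 (1.57% of all genes). The authors' heat map of deregulated genes already named both, so these calls are no independent support. Of the 19, 13 were higher and 6 lower in Nr2f6-/- mice under anti-PD-L1. Their median log2 difference was 0.26, against -0.005 over all genes tested. The share of all genes that were higher was not counted, so nothing is read from that count. Adcy7, an adenylyl cyclase of leukocytes, was 0.65 higher in Nr2f6-/- mice under anti-PD-L1 on the log2 scale (adjusted p = 0.0936 from limma), with means of 1899 and 2972, and DESeq2 called it (adjusted p = 0.00317). Between the antibodies limma and edgeR called 1 of the 19, Nr4a1, in either genotype. Of all genes limma called 0.242% in wild-type and 0.325% in Nr2f6-/- mice. DESeq2 called Nr4a1 in both and Nr4a3 in Nr2f6-/- mice (0.801% and 1.96%). With anti-PD-L1 17 of the 19 were lower in wild-type and 13 in Nr2f6-/- mice. The share of all genes that were lower was not counted. Nr4a1 is a nuclear receptor gene induced by T cell receptor signals as well as by cAMP. It fell with anti-PD-L1 by 1.74 on the log2 scale in wild-type mice (SE 0.32, adjusted p = 0.00927). In Nr2f6-/- mice it fell by 1.74 (SE 0.32, adjusted p = 0.0104). Its means were 4718 and 1442 in wild-type and 6792 and 2258 in Nr2f6-/- mice. Both calls were lost without the filter and with the replicate block. The first was also lost without Nr2f6+/+ IgG2b replicate 1 or 3 and with a term for the library set, and the second without Nr2f6-/- IgG2b replicate 1 or 2 and within the first library set (log2 difference -1.08).

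The 5 genes whose log2 levels went most closely with Entpd1 over the 18 samples were Tap1 (Pearson r 0.828), Ccni (0.787), Ubl5 (0.771), Asf1b (0.761) and Tubb5 (0.756). Tap1, a peptide transporter of antigen presentation, had means of 5016 and 6993 in Nr2f6+/+ and Nr2f6-/- IgG2b and of 6060 and 7157 in Nr2f6+/+ and Nr2f6-/- anti-PD-L1 samples. These are the highest of 11992 values and are given as a description. With the group means taken off, other genes came first: Atp10a (0.799), Mrgpre (0.786), Tecr (0.783), Meis2 (0.777) and Rpl15 (0.77). Meis2 had means of 29.7 and 43.6 in Nr2f6+/+ IgG2b and anti-PD-L1 samples and of 0.314 and 0 in the Nr2f6-/- samples. Its r thus rests mostly on wild-type samples at low counts. Dpp4 and Entpd1 had an r of 0.717 over the samples and of 0.123 with the group means taken off, so that they shared the difference between groups and little of the variation within them.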

How the data were processed

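RNA of CD3+ TILs was sequenced from the 3′ ends of transcripts (QuantSeq, Ion Torrent). Per the labels and the study's methods the authors trimmed reads with Cutadapt and Trimmomatic, mapped them to mm10 with STAR and Bowtie2, counted reads per gene with HTSeq and used DESeq2. Annotation, strand setting and versions are not given in the sources used here. The deposited signal is the read count of a gene divided by 1 size factor per sample. Division by that step gave whole reads for 100% of values (within 0.001 reads), a median of 16554699 per sample. Of 153 pairs of columns 0 held identical values.

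The deposited values are normalized counts, so limma (3.58.1, R 4.3.3) was taken as the main test. Count models on the recovered reads were possible and were run as alternatives. The limma fit used log2(normalized count + 1) for genes whose mean was 10 or more, 11992 of 37236. One model of 4 group means over 18 samples was fitted with eBayes and its trend option. The 6 comparisons were contrasts of it, two-sided, adjusted by Benjamini-Hochberg over all genes tested, with a threshold of 0.05. A fold change on this scale understates the change of low genes. Where no tool is named beside an adjusted p, it is from limma. The sample titles give replicate numbers and do not say that samples came from separate mice, so p-values measure only the spread between samples. The authors' figure gives n = 5 for each anti-PD-L1 group, against 6 samples in these data. Members and lists were chosen with earlier results of these data known. Named were Nr2f6, the 8 members, listed genes past the threshold or up to 5 per role with the highest mean, and the 5 genes most like Entpd1 by either measure. Groups came from the labels.

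Alternatives were pseudocounts of 0.5 and 10, a filter at 50 or none, scaling to 1 total, quantile normalization, a replicate block, the library set as covariate, either set alone, the compared groups only, edgeR (4.0.16) and DESeq2 (1.42.0) on recovered reads, and leaving out each sample. Promoter windows are from RefSeq on GRCm38.p6, the assembly mm10 stands for, and positions are from that annotation. The tests were also run on simulated counts, and the outcome is not given here. Only genes of higher mean were changed there and no difference between library sets was simulated. This run therefore does not cover genes near the floor or the set.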

Additional observations from a re-analysis of the deposited data

Results flagged for a closer look

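In groups of 6, 1 sample stood apart from the other 5 by Dixon's criterion in 3 of the 16 combinations of member and group searched. For normally distributed values chance alone gives this in about 1 of 20. The genes flagged have counts near 0, which are not so distributed, so these shares cannot be compared. Ada was at 152.4 normalized counts in Nr2f6-/- anti-PD-L1 replicate 6. Adora2b was at 82.36 in Nr2f6+/+ anti-PD-L1 replicate 6 and at 188.3 in Nr2f6-/- anti-PD-L1 replicate 3. Both genes have other samples of the same group at 0 or at 1 to 5 reads, and no difference of either gene is reported.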

How the results depend on the processing

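The number of members called between the genotypes under anti-PD-L1, 1 as reported, was 2 (Entpd1 and Dpp4) with a pseudocount of 10, with quantile normalization and with the library set as a covariate, 3 with DESeq2 and 0 without the filter or in the second library set alone. In the first set alone it was 1, but the gene was Dpp4 and Entpd1 was not called. Leaving out samples gave 1 to 2, with Dpp4 added without Nr2f6-/- anti-PD-L1 replicate 4 or Nr2f6+/+ anti-PD-L1 replicate 5. Under IgG2b it was 1 with DESeq2 in place of 0. For the antibodies in Nr2f6-/- mice it was 0 in place of 1 without the filter, scaled to the same total, with the replicate block, with the library set as a covariate and in the first set alone, and 0 to 1 when samples were left out. Between Nr2f6-/- anti-PD-L1 and Nr2f6+/+ IgG2b it was 1 in the first set alone, again Dpp4 in place of Entpd1, 2 in a fit of these groups only, 3 with DESeq2 and 0 to 2 when samples were left out, 0 without Nr2f6+/+ IgG2b replicate 3 and 2 without Nr2f6+/+ anti-PD-L1 replicate 2. For the difference of the antibody effects it was 1 with DESeq2 in place of 0. The causes were not tested.

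The Entpd1 difference of antibody effects was -0.0043 with edgeR and -0.0017 with DESeq2 and ran from -0.19 to 0.32 when samples were left out. The Nt5e difference between genotypes under anti-PD-L1 was 0.40 in the first library set alone and ran from -0.94 to 0.13 when samples were left out. Over 642 values of the 29 differences given, 9 changed sign, 38 lost a call and 15 gained one. Over all genes, limma called 21, 0, 29, 39, 74 and 0 in the 6 comparisons and DESeq2, the highest of the alternatives on all samples, 184, 88, 94, 230, 177 and 76. With all samples of the compared sets kept, the lowest were 7, 0, 12, 17, 41 and 0.

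Replicate numbers are shared by the groups, but samples with the same number did not deviate together (r between -0.029 and 0.037 over 21 pairs, against -0.046 to 0.063 over 96 pairs of other numbers). With the replicate number as a block, 1 member (Entpd1) was called between the genotypes under anti-PD-L1 and 0 for the antibodies in Nr2f6-/- mice, and Nr4a1 was no longer called for the antibodies. Over all genes the block gave 31, 0, 12, 27, 79 and 0 calls.

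The set of the libraries and the antibody are partly confounded, since the second set holds anti-PD-L1 samples only. Groups of 3 limit the IgG2b comparisons.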
